A study of Mus musculus with 36 samples.

Results

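The 10 genes described here are the receptor gene Nr3c1 and 9 genes that glucocorticoids are known to regulate in many tissues: Tsc22d3, Fkbp5, Sgk1, Zbtb16, Klf9, Cdkn1a, Mt1, Mt2 and Cebpd. They were chosen as a list of known target genes, and each was represented by the probe sets that the platform annotation gives to its symbol and to no other. That gave 31 probe sets for the 10 genes, of 45037 probe sets for 18193 genes on the array. Klf9 had 7 probe sets, Nr3c1 6, Tsc22d3 4, Fkbp5 and Zbtb16 3 each, Cdkn1a, Mt1 and Cebpd 2 each, and Sgk1 and Mt2 1 each. Where no probe set is named, a gene is represented by its brightest one, judged by the mean of the 36 arrays.

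Glucocorticoids are steroid hormones that enter cells and bind the glucocorticoid receptor, a transcription factor held in the cytoplasm by chaperones until the hormone arrives. The bound receptor moves to the nucleus and changes transcription at DNA elements near its target genes. Circulating corticosterone, the main glucocorticoid of mice, reaches neurons, glia and vessel cells of the brain and follows both stress and the time of day.

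Expression was measured on 36 Affymetrix GeneChip mouse arrays in male C57B1/6J mice of 20 to 26 g that underwent conditioned place preference, in which one compartment of a box comes to be linked to a drug. The mice were injected daily on days 3 to 10, on alternate days with saline in the preferred compartment and with modafinil at 65 mg/kg, a wakefulness-promoting drug, or saline in the other. Brains were taken right after the test on day 11, which was 24 h after the last drug or saline administration, and 1 mm punches were cut from 100 µm slices. There were 5 modafinil and 5 vehicle arrays of the nucleus accumbens (NAC), 5 modafinil and 5 vehicle arrays of the ventral tegmental area (VTA), and 8 modafinil and 8 vehicle arrays of the prefrontal cortex (PFC). For NAC and VTA the RNA of 2 tissue pieces was pooled where its integrity allowed. The vehicle mice were saline-injected and conditioned in the same way, so no group was free of injection, handling or testing. The labels do not say which arrays of different regions came from the same mouse, nor that every array is a mouse of its own. The p-values therefore measure the spread between these arrays, which may be technical in part. Age and the hour of killing are not given in the sources used here.

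Values are log2 intensities, and the medians of single arrays ran from 6.76 to 7.27. PFC arrays lay on a higher scale than those of NAC and VTA, so levels in PFC are not compared with the other regions. The striatal neuron list averaged 10.67 ± 0.36 on vehicle NAC arrays and 7.99 ± 0.14 on vehicle VTA arrays, and the dopamine neuron list 6.17 ± 0.076 on vehicle NAC arrays and 9.15 ± 0.58 on vehicle VTA arrays (SD, n = 5 each). The cortical neuron list averaged 10.37 ± 0.12 on vehicle PFC arrays (SD, n = 8). Modafinil PFC array 3 stood apart with 9.90 for the striatal list, against 8.06 to 8.31 on the other 7 modafinil PFC arrays and 8.10 to 8.30 on vehicle PFC arrays. The cortical list ran from 7.62 to 9.44 on modafinil NAC arrays and from 7.90 to 9.62 on vehicle NAC arrays. In VTA the dopamine neuron list was lower on modafinil arrays, with a mean of 8.10 ± 0.55 (SD, n = 5) against 9.15 ± 0.58 (SD, n = 5) on vehicle arrays. In bulk tissue, fewer cells of a type and less RNA per cell cannot be told apart.

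Promoter windows of 300 bases, from 250 before to 50 after an annotated start, were taken from RefSeq on GRCm38.p6 for 7 of the 10 genes (15 windows). The 15 windows were searched on both strands for the glucocorticoid response element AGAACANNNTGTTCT, for a single arm of it (AGAACA, which overlaps every full element), and for the metal response element core TGCACNC or TGCGCNC. The full element was in 3 of 32851 windows of all genes (0.00913%), the single arm in 19.0% and the metal core in 25.7%. Of the 15 windows of these genes, the full element was found in 1, at the fifth of the 6 annotated starts of Sgk1. That window, chr10:21993640-21993939 on the plus strand, is shown because it is the one with the receptor's own motif, with the full element at chr10:21993701-21993715 and a further single arm in capitals.

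Sgk1: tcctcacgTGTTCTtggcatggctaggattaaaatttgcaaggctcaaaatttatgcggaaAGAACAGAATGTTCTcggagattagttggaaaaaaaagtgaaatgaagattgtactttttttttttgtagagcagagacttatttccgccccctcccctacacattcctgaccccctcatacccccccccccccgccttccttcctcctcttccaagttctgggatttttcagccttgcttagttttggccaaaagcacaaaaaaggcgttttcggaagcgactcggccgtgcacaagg

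The windows of the metallothionein genes Mt2 (chr8:94172368-94172667) and Mt1 (chr8:94178839-94179138) are shown because these genes moved together over the arrays. Both lie on the plus strand of chromosome 8, with start sites 6471 bases apart, and neither window holds AGAACA on either strand. Capitals mark the metal cores, of which the Mt2 window has 4 and the Mt1 window 3. At least 3 such matches were in 1.97% of all windows.

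Mt2: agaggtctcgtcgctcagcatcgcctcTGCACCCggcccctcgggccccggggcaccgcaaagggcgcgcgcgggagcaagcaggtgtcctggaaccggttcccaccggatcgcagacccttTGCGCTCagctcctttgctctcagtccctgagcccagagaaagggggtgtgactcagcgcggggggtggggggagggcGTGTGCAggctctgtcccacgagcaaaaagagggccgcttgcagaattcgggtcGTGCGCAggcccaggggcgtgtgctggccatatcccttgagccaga
Mt1: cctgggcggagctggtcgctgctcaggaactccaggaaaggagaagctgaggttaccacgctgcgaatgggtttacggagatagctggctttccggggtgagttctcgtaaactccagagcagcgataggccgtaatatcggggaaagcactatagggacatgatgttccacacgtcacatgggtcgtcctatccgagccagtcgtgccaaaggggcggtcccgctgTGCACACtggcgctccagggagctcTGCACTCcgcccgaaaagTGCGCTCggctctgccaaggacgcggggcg

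The first question was whether these genes differ between modafinil and vehicle mice with all 3 regions in 1 fit. Tsc22d3, which encodes the leucine zipper protein GILZ, an anti-inflammatory mediator of glucocorticoids, was higher in modafinil mice. Its probe set 1420772_a_at was higher by 0.21 (log2 difference, SE 0.047), a 1.16-fold change, with an adjusted p of 0.0151 in limma over 27022 probe sets. A second probe set of Tsc22d3, 1425557_x_at, was higher by 0.19 (SE 0.040, adjusted p 0.0128). Another, 1425281_a_at, gave 0.11 with an adjusted p of 0.270. The 2 called probe sets were the only member probe sets past an adjusted p of 0.05 among the 24 tested, against 0.84% of all probe sets called in either direction and 0.444% called higher.

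On single arrays of VTA, Tsc22d3 (1420772_a_at) read 10.80, 10.65, 10.47, 10.73 and 10.59 in modafinil mice, against 10.34, 10.65, 10.51, 10.32 and 10.51 in vehicle mice. In NAC it read 9.47, 9.69, 9.83, 9.85 and 9.74 in modafinil mice, against 9.43, 9.75, 9.60, 9.32 and 9.19 in vehicle mice. In PFC the modafinil arrays ran from 10.03 over a median of 10.28 to 10.43, and the vehicle arrays from 9.93 over a median of 10.04 to 10.22. The groups overlapped in every region, but 3 of 5 modafinil VTA arrays, 2 of 5 in NAC and 6 of 8 in PFC lay above the highest vehicle array of their region. The log2 difference was 0.18 in VTA, 0.26 in NAC and 0.20 in PFC, and in none of the 3 regions alone did it pass the adjusted test. The probe set 1425281_a_at showed no rise in NAC. It averaged 9.27 ± 0.083 on modafinil and 9.30 ± 0.19 on vehicle NAC arrays (SD, n = 5 each). Of the modafinil NAC arrays, 1 of 5 lay above the vehicle mean. Both called probe sets stayed past the threshold when each of the 36 arrays was left out in turn, with adjusted p up to 0.0301 for 1420772_a_at and up to 0.0252 for 1425557_x_at.

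The other 9 genes did not pass across the regions. Closest were Cebpd, an acute-phase transcription factor of the C/EBP family, with 0.32 (SE 0.084, adjusted p 0.0591), and Cdkn1a, which encodes the cyclin-dependent kinase inhibitor p21, with -0.22 (SE 0.058, adjusted p 0.0591). Zbtb16, a zinc finger transcription factor, gave 0.40 (SE 0.11, adjusted p 0.0697). Sgk1, a kinase that acts on ion channels and transporters, gave 0.17 (SE 0.068, adjusted p 0.198), and Fkbp5, a co-chaperone that lowers hormone binding by the receptor, gave 0.12 (SE 0.049, adjusted p 0.212). Klf9 (0.10), Nr3c1 (0.063), Mt1 (0.11) and Mt2 (0.11) had adjusted p-values from 0.348 to 0.543. Of the 24 tested probe sets 20 were above 0 and 4 below, with a median of 0.11, while the median over all tested probe sets was -0.027 and 34.7% of them were above 0. An unadjusted p under 0.05 was reached by 14 of the 24, against 16.6% of all probe sets.

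Single arrays decided whether Cebpd, Zbtb16 and Cdkn1a were called. Without vehicle NAC array 2, 5 member probe sets passed, adding Cebpd (0.33, adjusted p 0.0429) and 2 probe sets of Zbtb16 (0.47, adjusted p 0.00796, for 1439163_at and 0.34, adjusted p 0.0419, for 1427638_at). Without modafinil PFC array 3, the array with the high striatal list, 5 passed as well, again with Cebpd and the same 2 probe sets of Zbtb16. Tsc22d3 gave 0.23 (adjusted p 0.00524) without that array. Without modafinil NAC array 4, 4 passed, adding Cebpd (adjusted p 0.0473) and Cdkn1a (adjusted p 0.0451). Each of 8 other arrays, left out alone, brought the number to 3. The added gene was Cebpd without modafinil VTA array 3, modafinil PFC array 6 or vehicle PFC array 4, and Zbtb16 without vehicle VTA array 2. It was Cdkn1a without modafinil NAC array 3, vehicle VTA array 4, vehicle NAC array 4 or vehicle PFC array 2. With 1 probe set per gene tested, Cebpd and Cdkn1a passed (adjusted p 0.0498 for each). With arrays weighted by their quality, 7 member probe sets passed, from Tsc22d3 (2), Zbtb16 (2), Cebpd, Cdkn1a and Fkbp5.

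**Figure D1:**
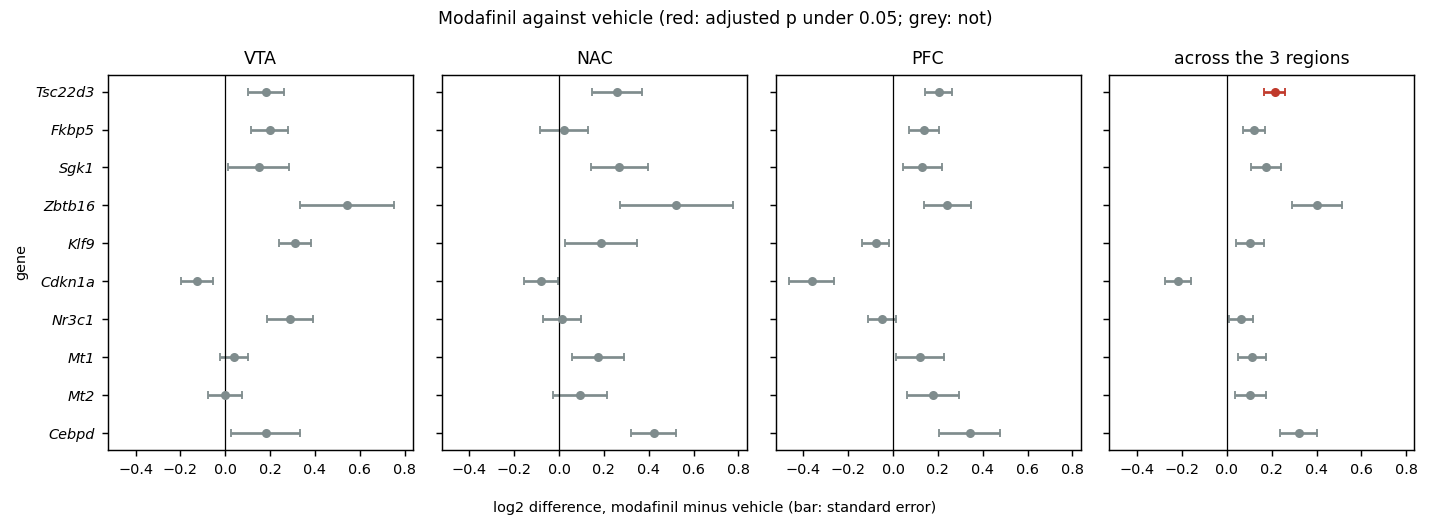
Log2 difference of modafinil minus vehicle (x axis, with standard error) for the main probe set of each of the 10 genes (y axis), in VTA, NAC, PFC and across the 3 regions. Tsc22d3 across the regions, at 0.21, is the point past an adjusted p of 0.05; Cdkn1a lies below 0 in every panel.

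In VTA none of the 25 tested member probe sets passed an adjusted p of 0.05 in limma, where 0.259% of all probe sets did. An unadjusted p under 0.05 was reached by 12 of the 25, against 21.1% of all probe sets. The member values lay mostly above 0, with 22 of 25 positive and a median of 0.18, while 36.2% of all tested probe sets were positive with a median of -0.047. The smallest adjusted p, 0.0559, belonged to Klf9.

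Klf9, a Krüppel-like transcription factor that responds to glucocorticoids and follows the daily clock, read 12.60, 12.51, 12.35, 12.34 and 12.32 on modafinil VTA arrays, against 12.03, 12.21, 12.04, 12.09 and 12.18 on vehicle VTA arrays. The lowest of the 5 modafinil arrays was higher than every vehicle array. The log2 difference was 0.31 (SE 0.071, 1.24-fold, adjusted p 0.0633). A second probe set of Klf9, 1428289_at, read 11.89, 11.69, 11.60, 11.57 and 11.59 in modafinil mice and 11.26, 11.38, 11.30, 11.32 and 11.44 in vehicle mice, again without overlap (0.33, SE 0.072, adjusted p 0.0559). Groups did not overlap for 5 of the 6 tested Klf9 probe sets, and the sixth, 1436763_a_at, gave 0.14. Klf9 was called in VTA under some other settings: 1428289_at and 1456341_a_at passed with the filter at the 60th percentile (adjusted p 0.0441 and 0.0463) and with a trended, robust fit (0.0407 for both).

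Nr3c1, the receptor gene itself, read 9.87, 9.25, 9.71, 9.45 and 9.52 on modafinil VTA arrays, against 9.27, 9.16, 9.27, 9.28 and 9.38 on vehicle VTA arrays. Modafinil array 2 fell within the vehicle range and the other 4 above it (0.29, SE 0.10, adjusted p 0.151). A second probe set of Nr3c1, 1421867_at, separated the groups, with 9.71, 9.33, 9.55, 9.34 and 9.27 in modafinil mice against 9.17, 9.03, 9.09, 9.18 and 9.22 in vehicle mice. Its difference of 0.30 (SE 0.085) had an adjusted p of 0.0967. Another Nr3c1 probe set, 1457635_s_at, gave 0.035 (SE 0.19), and 3 others were too low to be tested.

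Zbtb16 in VTA read 9.22, 8.75, 8.45, 8.40 and 8.42 on modafinil arrays, against 7.96, 8.83, 7.62, 8.16 and 7.95 on vehicle arrays. Vehicle array 2 lay among the modafinil arrays, and the difference of 0.54 (SE 0.21) had an adjusted p of 0.177. On its probe set 1427638_at, modafinil arrays read 7.59, 7.24, 7.06, 6.80 and 6.83, and vehicle arrays 6.63, 6.75, 6.46, 6.20 and 6.35, without overlap. This was the largest log2 difference among the members in VTA, 0.62 (SE 0.15, adjusted p 0.0693), and 1 fit of all 36 arrays called it (adjusted p 0.0286). In all, 7 of 25 member probe sets separated the groups in VTA with modafinil higher, from 3 genes, where 1.81% of all tested probe sets did. The Klf9 probe sets share a target, so the 7 are not 7 independent readings.

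Fkbp5 read 9.02, 8.90, 8.67, 8.84 and 8.86 on modafinil VTA arrays, against 8.70, 8.72, 8.71, 8.41 and 8.76 on vehicle VTA arrays. Modafinil array 3 lay inside the vehicle range and the other 4 above it (0.20, SE 0.083, adjusted p 0.202). Sgk1 read 11.73, 11.90, 11.38, 11.66 and 11.67 in modafinil mice, against 11.71, 11.71, 11.61, 10.99 and 11.58 in vehicle mice, a difference of 0.15 (SE 0.14). The groups overlapped, with 2 of 5 modafinil arrays above the highest vehicle array and vehicle array 4 below every modafinil array. Cdkn1a (-0.13), Cebpd (0.18), Mt1 (0.040) and Mt2 (-0.00098) overlapped as well. Other lists also differed between the groups in VTA. All 12 tested dopamine neuron genes were below 0, with a median of -1.03 and none called. Over all 13 listed genes on the array, mean levels were 7.48 to 8.99 on modafinil arrays and 8.50 to 10.04 on vehicle arrays. All 16 tested interferon gamma-induced genes were above 0, with a median of 1.01 and 1 called. Over all 19 listed genes on the array, mean levels were 6.84 to 8.29 on modafinil arrays and 6.84 to 7.07 on vehicle arrays. All 12 tested oligodendrocyte genes were below 0, with a median of -0.19 and none called. Of 12 astrocyte genes 8 were below 0 (median -0.072, none called), and their mean level ran from 10.28 to 10.38 on modafinil arrays and from 10.40 to 10.64 on vehicle arrays. All 5 tested cortical neuron genes were above 0 (median 0.29, none called). Of 17 clock genes 13 were above 0 and 2 were called higher: Ciart (0.61, adjusted p 0.0462) and Hlf (1.03, adjusted p 0.0462). Their part in the member values was not tested.

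**Figure D2:**
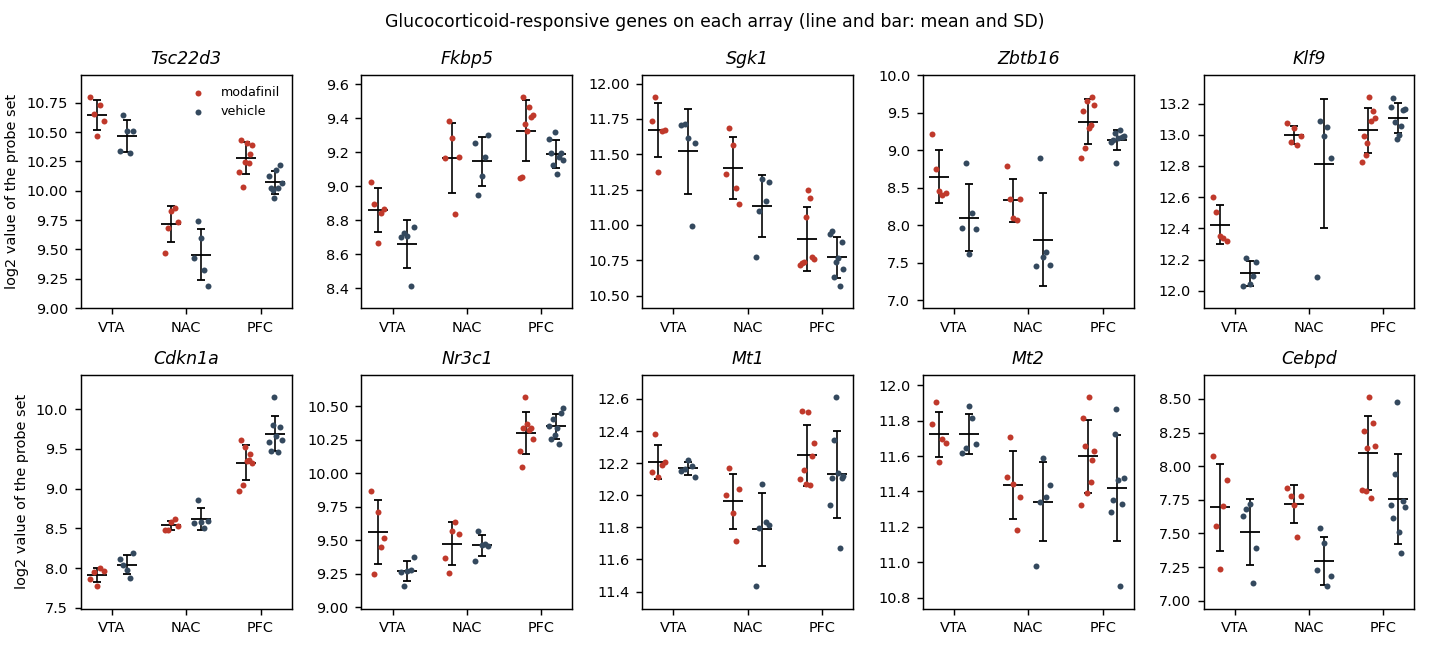
Log2 value of the main probe set of each gene (y axis) on each of the 36 arrays, in VTA, NAC and PFC (x axis), with modafinil arrays in red to the left of vehicle arrays in dark blue; lines and bars give the mean and SD. Klf9 separates the groups in VTA, where modafinil arrays read 12.32 or more and vehicle arrays 12.21 or less.

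In NAC none of the 24 tested member probe sets passed in limma, where no probe set at all did (0%), and the smallest adjusted p among the members was 1.00. An unadjusted p under 0.05 was reached by 4 of the 24, against 3.23% of all probe sets. The values were positive for 17 probe sets and negative for 7.

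Cebpd had the smallest unadjusted p of the members in NAC. It read 7.84, 7.78, 7.71, 7.47 and 7.78 on modafinil NAC arrays, against 7.23, 7.54, 7.43, 7.11 and 7.18 on vehicle NAC arrays. Array 4 was the 1 modafinil array under the highest vehicle array (0.42, SE 0.099, p 0.0011 unadjusted in limma). Zbtb16 read 8.79, 8.35, 8.10, 8.07 and 8.35 in modafinil mice, against 7.46, 8.90, 7.58, 7.64 and 7.47 in vehicle mice. Vehicle array 2 was above every modafinil array, while the other 4 vehicle arrays were below every one of them. The Zbtb16 difference was 0.52 (SE 0.25) with all arrays and 0.80 (SE 0.13, adjusted p 0.429) without vehicle array 2.

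Klf9 in NAC read 13.07, 12.96, 13.05, 12.94 and 12.99 on modafinil arrays, against 12.09, 13.09, 12.99, 13.05 and 12.85 on vehicle arrays. Its difference of 0.19 (SE 0.16) rested on vehicle array 1, without which it was 0.0045 (SE 0.072). Sgk1 gave 0.27 (SE 0.13), with 11.36, 11.69, 11.56, 11.26 and 11.14 in modafinil mice against 10.77, 11.10, 11.32, 11.17 and 11.30 in vehicle mice. Vehicle array 1 was the lowest here too. Fkbp5 (0.021), Nr3c1 (0.014), Cdkn1a (-0.081), Mt1 (0.17) and Mt2 (0.094) had groups that overlapped widely. All 16 tested interferon gamma-induced genes were above 0 in NAC (median 0.87, none called), and 9 of 10 striatal neuron genes were below 0 (median -0.24, none called). Their part in the member values was not tested.

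In PFC none of the 24 tested member probe sets passed in limma, where 0.0518% of all probe sets did, and the smallest adjusted p was 0.243. An unadjusted p under 0.05 was reached by 7 of the 24, against 11.8% of all probe sets. The values were above 0 for 16 and below for 8. None passed without modafinil PFC array 3 either, where the differences ran from -0.32 for Cdkn1a to 0.38 for Cebpd.

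Cdkn1a was the member with the smallest p in PFC and was lower with modafinil. Its modafinil arrays ran from 8.97 over a median of 9.35 to 9.61, and its vehicle arrays from 9.46 over a median of 9.64 to 10.15. All 8 modafinil arrays were below the vehicle mean and 6 of 8 below the lowest vehicle array (-0.36, SE 0.10, adjusted p 0.243). The second Cdkn1a probe set, 1421679_a_at, gave -0.22 (SE 0.084, adjusted p 0.362). Of 11 tested p53 target genes, a list to which Cdkn1a also belongs by its known control, none passed in PFC, with 5 above 0 and 6 below.

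Zbtb16 in PFC ran from 8.90 over a median of 9.43 to 9.71 in modafinil mice, against 8.83, 9.17 and 9.26 in vehicle mice. The highest vehicle array was exceeded by 6 of 8 modafinil arrays (0.24, SE 0.10, adjusted p 0.394). Fkbp5 likewise had 6 of 8 modafinil arrays above the highest vehicle array and the other 2 below the lowest (0.14, SE 0.068, adjusted p 0.434). Cebpd ran from 7.76 over a median of 8.15 to 8.51 in modafinil mice, against 7.36, 7.70 and 8.47 in vehicle mice. All 8 modafinil arrays were above the vehicle mean, but a vehicle array at 8.47 left only 1 of 8 above the highest (0.34, SE 0.14, adjusted p 0.367). Klf9 (-0.078) and Nr3c1 (-0.049) were slightly below 0, and Nr3c1 turned to 0.0023 when all arrays were quantile-normalised. Mt1 (0.12), Mt2 (0.18) and Sgk1 (0.13) had standard errors of 0.087 to 0.12. In PFC the interferon gamma-induced list had 5 of 16 tested genes called higher and the oligodendrocyte list 12 of 12 genes above 0 (median 0.22, none called). Their part in the member values was not tested.

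**Figure D3:**
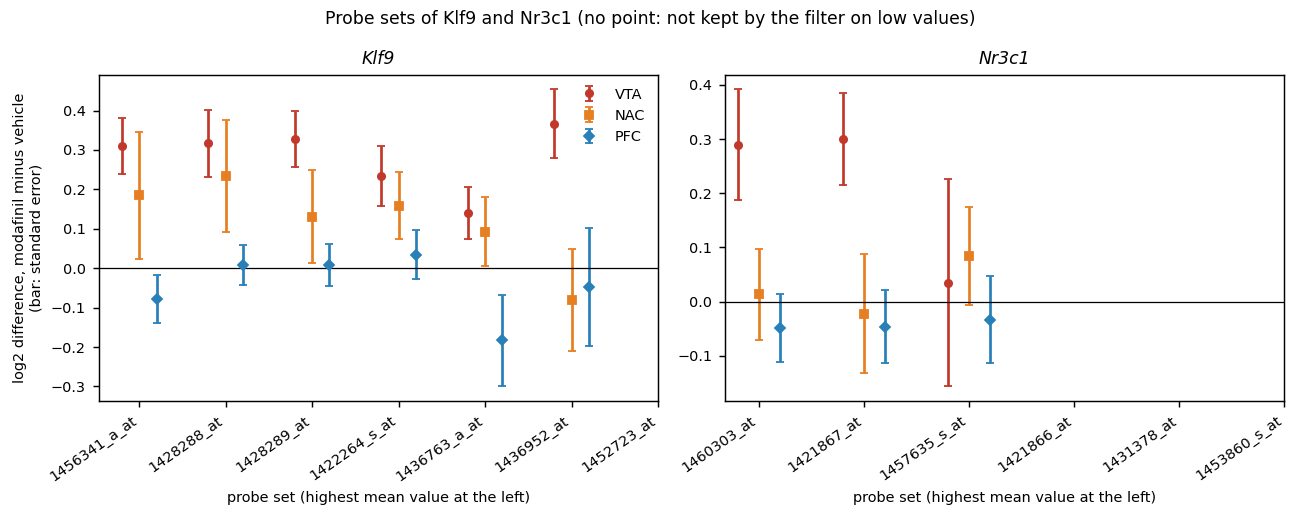
Log2 difference of modafinil minus vehicle (y axis, with standard error) for each probe set of Klf9 and Nr3c1 (x axis), by region. In VTA the 6 tested Klf9 probe sets lie between 0.14 and 0.37, and in PFC all but the 3 between 0.0083 and 0.035 lie below 0; the 1 Klf9 and 3 Nr3c1 probe sets with no point were too low to be tested.

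Whether the modafinil difference itself changed with the region was tested as an interaction over all 36 arrays. None of the 24 member probe sets passed for VTA minus NAC, where 0.274% of all probe sets did, none for VTA minus PFC (0.903%), and none for NAC minus PFC (0%). Unadjusted p-values under 0.05 were found for 4, 7 and 2 of the 24, against 11.2%, 12.1% and 4.91% of all probe sets. Nr3c1 had the smallest adjusted p for VTA minus PFC, with a difference of differences of 0.34 (SE 0.11, adjusted p 0.175), and Klf9 (1428289_at) followed with 0.32 (SE 0.11, adjusted p 0.193). With all arrays quantile-normalised, which moved the group medians by 0.17 to 0.23 in NAC and VTA and by -0.24 to -0.25 in PFC, both Klf9 (1456341_a_at, adjusted p 0.0299) and Nr3c1 (1460303_at, adjusted p 0.0382) passed. Without vehicle NAC array 1, 2 Klf9 probe sets passed (adjusted p 0.0255 and 0.0472), and without modafinil VTA array 2 Nr3c1 did (adjusted p 0.0493).

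A weaker Fkbp5 probe set, 1448231_at, gave values of opposite sign between regions. It read 7.10, 7.07, 7.12, 6.78 and 6.92 on modafinil NAC arrays, against 7.24, 7.08, 7.32, 7.30 and 7.23 on vehicle NAC arrays, a difference of -0.23 (SE 0.083). In VTA the difference was 0.18 (SE 0.10) and in PFC 0.18 (SE 0.052). The interaction was -0.41 for NAC minus PFC (SE 0.10, adjusted p 0.914) and 0.42 for VTA minus NAC (SE 0.12, adjusted p 0.112). The main Fkbp5 probe set, 1416125_at, gave 0.021 in NAC, and the deviations of the 2 probe sets from their group means correlated at 0.21 over the 36 arrays. The Fkbp5 probe sets therefore did not read alike, whereas those of Zbtb16 (r of 0.79 and 0.86 with the main one), Cdkn1a (0.81) and the 3 strongest of Klf9 (0.89 and 0.92 with the main one) tracked each other. Further tested Klf9 probe sets followed the main one less closely, at 0.54 (1436763_a_at), 0.44 (1422264_s_at) and 0.30 (1436952_at). The weaker Mt1 probe set, 1451612_at, correlated with the main one at 0.37. For Cebpd the weaker probe set, 1456605_at, did so at 0.36.

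A comparison of NAC with VTA, in vehicle mice only, describes where these genes are high without the drug. The fit held the vehicle arrays of every region, and those of PFC entered only the filter and the spread behind the standard errors. Of 24 tested member probe sets, 16 passed, 10 higher and 6 lower in NAC, from 9 genes. Regional differences were the rule on these arrays, since 59% of all probe sets passed, 30.3% higher and 28.8% lower.

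Tsc22d3 had the largest difference of the main probe sets: vehicle NAC arrays averaged 9.46 ± 0.22 and vehicle VTA arrays 10.47 ± 0.14 (SD, n = 5 each), a difference of -1.01 (SE 0.091, adjusted p 1.43e-08). No vehicle NAC array came near the VTA range, with 9.75 as the highest in NAC and 10.32 as the lowest in VTA. Its probe set 1425557_x_at differed less (-0.27, adjusted p 0.00972), and 1425281_a_at gave -0.13 without passing. Sgk1 was lower in NAC (-0.39, SE 0.13, adjusted p 0.0131), as were Mt1 (-0.38, SE 0.13, adjusted p 0.0166) and Mt2 (-0.38, SE 0.14, adjusted p 0.0253). Mt1 and Mt2 lost their calls with quantile normalisation (adjusted p 0.0519 and 0.0517). Lists of several non-neuronal cell types lay the same way in this comparison, with 9 of 12 astrocyte, 11 of 12 oligodendrocyte, 7 of 12 endothelial and 4 of 7 mural genes called lower in NAC. The microglia list went the other way, with 9 of 11 genes called higher in NAC. The part of these lists in the member values was not tested.

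Klf9 was higher in NAC, with 12.81 ± 0.41 in vehicle NAC arrays and 12.11 ± 0.081 in vehicle VTA arrays (SD, n = 5 each; 0.70, SE 0.13, adjusted p 0.000142). Fkbp5 was higher in NAC by 0.49 (SE 0.075, adjusted p 1.68e-05) and by 0.95 (SE 0.066, adjusted p 3.77e-10) on 1448231_at. Cdkn1a was higher by 0.58 (SE 0.11, adjusted p 0.000111), with 8.62 ± 0.14 in vehicle NAC arrays and 8.04 ± 0.12 in vehicle VTA arrays (SD, n = 5 each). Nr3c1 was higher by 0.19 (SE 0.061, adjusted p 0.0107). Zbtb16 (-0.29, SE 0.23) and Cebpd (-0.22, SE 0.16) did not pass on their main probe sets. For Zbtb16 this rested on vehicle NAC array 2, without which the difference was -0.57 (adjusted p 0.00452), and without vehicle VTA array 2 it was -0.11. Its probe set 1419874_x_at was called lower in NAC (-0.60, adjusted p 0.0341), a call not kept with the 10 arrays of these regions alone (adjusted p 0.0978).

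The next question was which of these genes vary together from array to array. Each array's value was taken as its deviation from the mean of its own treatment and region, over 36 arrays, and the 45 pairs of genes were tested by permuting arrays within groups 100000 times. Pearson's r was above 0 for 39 of the 45 pairs with a median of 0.23. Only 4 pairs passed a Benjamini-Hochberg adjusted p of 0.05, all positive: Mt1 with Mt2, and Cebpd with each of Cdkn1a, Mt1 and Mt2. Among the probe sets of other genes kept by the filter, ordered by r with Mt1, Cebpd stood at place 398 of 27020 (1.47%). Ordered by r with Mt2 it stood at 595 of 27021 (2.20%), and with Cdkn1a at 16 of 27020 (0.0592%). By r with Cebpd, Cdkn1a stood at 89, Mt1 at 119 and Mt2 at 224 of 27021.

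Mt1 and Mt2, which encode metallothioneins, small proteins that bind zinc and other metals, had r = 0.94 (rho = 0.83; permutation p 1e-05 for each, the smallest 100000 permutations can give; adjusted p 0.00045 for each). The relation held in VTA (r = 0.77), NAC (r = 0.94) and PFC (r = 0.96), and r was 0.91 without the 2 arrays farthest from the Mt1 median. Within single regions of 10 arrays the adjusted p of Mt1 with Mt2 was 0.151 in VTA and 0.0644 in NAC. Each was the other's closest probe set among all those tested. In PFC, Mt1 ran from 12.07 to 12.53 in modafinil mice and from 11.67 to 12.61 in vehicle mice, and the vehicle array with the lowest Mt1, array 6, also had the lowest Mt2 (10.87). The metallothioneins are close in sequence, and sharing of probes between them was not tested, as no probe sequences were at hand.

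Cebpd followed the metallothioneins mainly in PFC. For Mt1 and Cebpd r was 0.63 (rho = 0.55; permutation p 0.0002 and 0.00108; adjusted p 0.0045 and 0.0243), with 0.85 in PFC, 0.52 in NAC and 0.021 in VTA. For Mt2 and Cebpd r was 0.58 (rho = 0.45; permutation p 0.00078 and 0.0098; adjusted p 0.00877 and 0.0882), with 0.78 in PFC, 0.45 in NAC and 0.13 in VTA. Spearman's rho thus did not pass for Mt2 and Cebpd. Without the 2 arrays farthest from the median of the metallothionein, r fell to 0.45 for Mt1 and 0.42 for Mt2. The permutation p, 0.00758 for Mt1 and 0.0177 for Mt2, came from deviations recomputed on the arrays left.

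Cdkn1a and Cebpd correlated at r = 0.64 (rho = 0.53; permutation p 0.00047 and 0.00315; adjusted p 0.00705 and 0.0473), although their modafinil differences had opposite signs in every region. Within regions r was 0.78 in PFC, 0.37 in NAC and 0.37 in VTA, and without the 2 arrays farthest from the Cdkn1a median it was 0.50. The permutation p without them, 0.0116, again came from deviations recomputed on the arrays left and was not adjusted over the pairs. With deviations taken from the region means, which leaves the difference between modafinil and vehicle in, r was 0.11. Vehicle PFC array 4 was the highest of its group for Cdkn1a (10.15), Cebpd (8.47), Mt1 (12.61) and Mt2 (11.86). Leaving out each array in turn kept r between 0.51 and 0.69 for Cdkn1a with Cebpd, between 0.51 and 0.68 for Mt1 with Cebpd and between 0.48 and 0.64 for Mt2 with Cebpd. Within PFC alone the same 4 pairs passed, and within VTA or NAC alone none did at 10 arrays each.

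**Figure D4:**
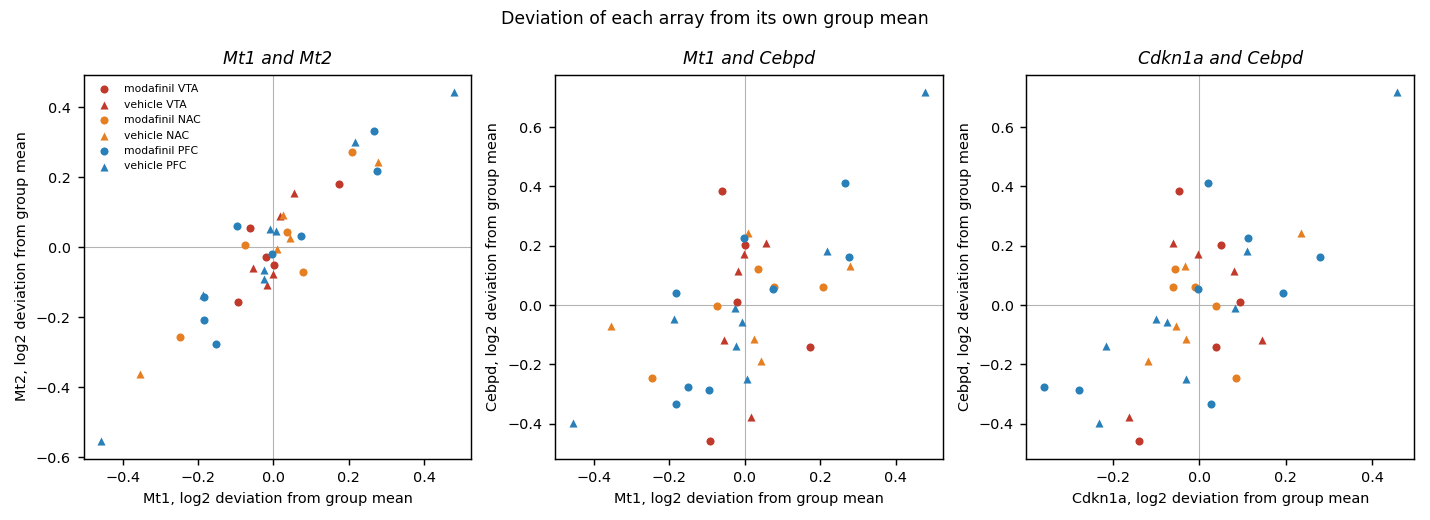
Deviation of each array from the mean of its own group, in log2 units, for Mt1 with Mt2, Mt1 with Cebpd and Cdkn1a with Cebpd, with circles for modafinil and triangles for vehicle and a colour for each region. The points of Mt1 and Mt2 lie close to a line (r = 0.94), and the single triangle at the upper right of the Cdkn1a panel is vehicle PFC array 4.

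None of the pairs among Tsc22d3, Fkbp5, Sgk1, Zbtb16 and Klf9 passed. Zbtb16 and Klf9 had r = 0.49 and rho = 0.52 (adjusted p 0.254 and 0.0534), with 0.81 in VTA, 0.44 in NAC and 0.50 in PFC. Without the 2 arrays farthest from the Zbtb16 median r was 0.42, with an unadjusted permutation p of 0.00078 from deviations recomputed on the arrays left. Tsc22d3 and Zbtb16 had r = 0.44 (adjusted p 0.176), with 0.54 in VTA, 0.32 in NAC and 0.58 in PFC. Fkbp5 and Sgk1 had r = 0.47 (adjusted p 0.0903), with 0.87 in VTA, 0.33 in NAC and 0.31 in PFC. Sgk1 and Klf9 had r = 0.46 (adjusted p 0.0675), with 0.30 in VTA, 0.58 in NAC and 0.55 in PFC. Leaving out 2 arrays by the first gene's median gave 0.25 for Tsc22d3 with Zbtb16 (unadjusted permutation p 0.209). It gave 0.44 for Fkbp5 with Sgk1 (unadjusted permutation p 0.0263) and 0.38 for Sgk1 with Klf9 (0.0609). Tsc22d3 and Fkbp5 had r = -0.19 (permutation p 0.339), with 0.76 in VTA, -0.58 in NAC and -0.30 in PFC. Fkbp5 and Klf9 had r = -0.0012 (permutation p 0.995), with 0.52 in VTA, -0.28 in NAC and 0.25 in PFC. The difference in sign between regions for Fkbp5 with Tsc22d3 and with Klf9 was not tested. The receptor gene Nr3c1 gave r of -0.23 with Mt1, -0.12 with Mt2 and -0.029 with Sgk1, none past the threshold.

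**Figure D5:**
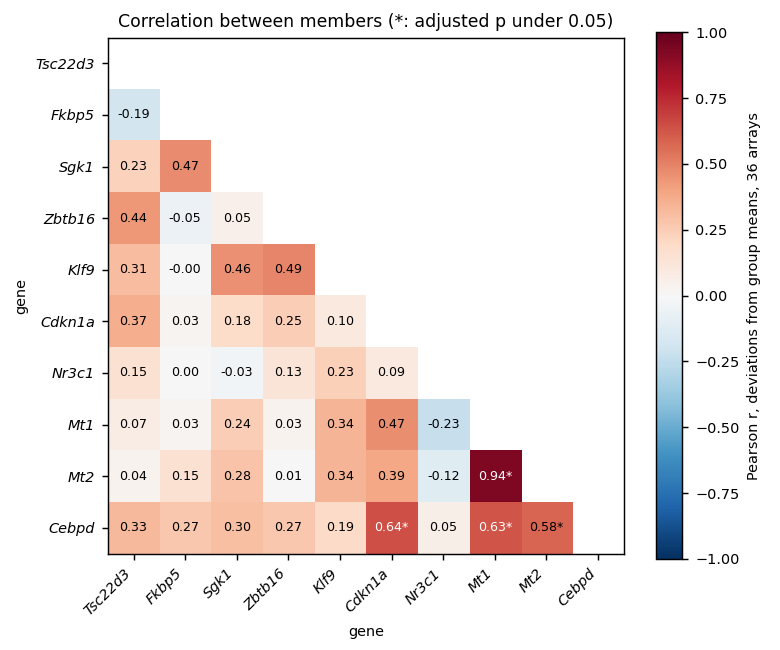
Pearson's r between the 10 genes over 36 arrays, from deviations from group means, in colour and number; asterisks mark an adjusted p under 0.05. The marked pairs are Mt1 with Mt2 (0.94) and Cebpd with Cdkn1a (0.64), Mt1 (0.63) and Mt2 (0.58).

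The probe sets of other genes most like each member over the 36 arrays were named by the highest r, as a description. For Tsc22d3 they were those of Ly6e (0.76), Syt7 (0.75) and Nat8l (0.74), and for Fkbp5 those of Lyst (0.73), Ppp1r2 (0.72) and Cpsf3 (0.71). Sgk1 was most like Gsn (0.70), Polr3e (0.70) and Usp54 (0.63). Zbtb16 was most like Klf13 (0.79), Ephb3 (0.72) and Socs3 (0.70), and Klf9 most like Slc1a2 (0.88), Purb (0.87) and Actb (0.85). The Klf9 values take in vehicle NAC array 1, where Klf9 read 12.09 against 12.85 on the nearest array of its group. How far that array carried the r of Klf9 was not tested. Cdkn1a was most like Cmtm5 (0.75), Phka1 (0.73) and Rassf4 (0.72), and Nr3c1 most like Ell2 (0.84), Ube2a (0.81) and Ogfrl1 (0.80). After Mt2, Mt1 was most like Ntsr2 (0.89) and Epas1 (0.87), and after Mt1, Mt2 was most like Ctso (0.85) and Plpp3 (0.83). Cebpd was most like Osmr (0.85), Prom1 (0.79) and Tgm2 (0.78).

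Members were also set against the mean level of 12 marker lists over the same 36 arrays, and 20 of 120 relations passed an adjusted p of 0.05. Mt1 had r = 0.77 with the astrocyte list (rho = 0.50; permutation p 1e-05 for r; adjusted p 0.0003), with 0.92 in PFC, 0.52 in NAC and -0.12 in VTA. It had r = 0.71 with the microglia list (rho = 0.68) and 0.71 with the endothelial list (rho = 0.58), both again positive in PFC and NAC and negative in VTA. Mt2 gave 0.73 with the astrocyte list and 0.67 with the microglia list. The metallothioneins therefore followed markers of several non-neuronal cell types at once, and these lists were not separated from each other.

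Cebpd had r = 0.68 with the microglia list (rho = 0.69; permutation p 2e-05 for r; adjusted p 0.0004) and 0.67 with the endothelial list (rho = 0.70), each positive in all 3 regions. With the interferon gamma-induced list Cebpd had r = 0.57 (rho = 0.63; permutation p 2e-05 for r; adjusted p 0.0004), with 0.69 in VTA, 0.61 in NAC and 0.54 in PFC. The lowest interferon list among modafinil arrays was on array 3 in VTA (6.84), array 4 in NAC (6.68) and array 6 in PFC (7.28), within or below the vehicle range of each region. Those 3 arrays were also the lowest modafinil arrays of their region for Cebpd, at 7.23, 7.47 and 7.76. Tsc22d3 had r = -0.60 with the striatal neuron list (rho = -0.55; permutation p 0.00023 for r; adjusted p 0.00307), negative in all 3 regions. Without the 2 arrays farthest from the striatal median it was -0.56. Nr3c1 had r = 0.44 with the cortical neuron list (rho = 0.52; permutation p 0.00123 for r; adjusted p 0.0106), and Klf9 r = 0.42 with the clock list (rho = 0.53; permutation p 0.00316 for r; adjusted p 0.0223).

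Other genes known to be induced by glucocorticoids were tested for comparison, with 29 of 33 listed genes measured above the filter. Across the 3 regions 22 were above 0 and 7 below, with a median of 0.060. None was called lower and 2 were called higher, against 0.444% of all probe sets called higher. The 2 called were Xdh, xanthine dehydrogenase of purine breakdown (1.19, SE 0.18, adjusted p 0.000131), and Tgm2, a transglutaminase (0.59, SE 0.13, adjusted p 0.0163). The interferon gamma-induced list had 15 of 16 tested genes called higher across the regions, and its part in these values was not tested. Slc2a1, the glucose transporter of vessel walls, gave 0.25 (adjusted p 0.0678), while Tob2 gave -0.088 and Pdk4, a kinase that restrains pyruvate use, -0.12, neither called. In VTA alone none of the 29 passed, where 0.259% of all probe sets did. An unadjusted p under 0.05 was reached by 14 of the 29, against 21.1% of all probe sets. Rasd1, a small G protein induced by dexamethasone, gave 1.18 (SE 0.31, adjusted p 0.0805) and Xdh 1.24 (SE 0.28, adjusted p 0.0587).

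Genes around the receptor were not called. None of 12 tested genes for the receptor's partners and chaperones passed across the regions, with 10 below 0, and Stip1, which links chaperones, came closest at -0.10 (adjusted p 0.252). None of 6 tested genes of steroid supply and stress hormones passed, with Crhr1, a receptor of corticotropin-releasing hormone, at -0.12 (adjusted p 0.281) and Hsd11b1, which regenerates active glucocorticoid, at 0.049. None of 11 zinc and metal genes passed, and Mt3, the metallothionein of brain, gave 0.032. None of 11 p53 targets passed, with Sesn1 at -0.12 (adjusted p 0.174) and Mdm2 at -0.070. None of 9 other genes of the Cebp and Klf families passed, with Klf13 at 0.11 and Klf2 at 0.16. At an unadjusted p under 0.05 these 5 lists had 1, 1, 1, 2 and 2 genes, against 16.6% of all probe sets. Of 17 clock genes, 5 were called higher and 1 lower, among them Per2 (0.30, adjusted p 0.000129), Ciart (0.49, adjusted p 0.000679) and Nr1d2 (0.20, adjusted p 0.00197) above 0 and Arntl (-0.25, adjusted p 0.0286) below.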

How the data were processed

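RNA of mouse NAC, VTA and PFC was labelled with the 3' IVT protocol and hybridised to Affymetrix arrays, per the labels' protocols. The deposited values were log2 intensities that the authors made with RMA, per the submitters' processing notes; version and settings are not given in the sources used here. The table covered 36 arrays, and the number of arrays limits the precision. The members and gene lists were chosen with earlier results of these data known. Control probe sets (64) were dropped, leaving 45037, and those whose mean over the arrays of a fit lay below the 40th percentile were not tested, leaving 27022. Of the 45037, 34945 had 1 gene symbol, 932 several and 9160 none; symbols came from the platform annotation. Groups were compared with limma 3.58.1 in R 4.3.3 (lmFit and eBayes), within each region and across regions, and p-values were adjusted by Benjamini-Hochberg over all tested probe sets, with a threshold of 0.05. The fit across regions used all 36 arrays with a term for region and a term for treatment. Fits of the differences between regions used all 36 arrays with 6 group means. Correlations used 100000 permutations within groups, two-sided, with Python 3.11.15, numpy 2.4.6 and scipy 1.17.1. Genes outside the members were named as the 3 most like each member by r, or as up to 3 genes of a list per direction and comparison by smallest p. Further probe sets of a member are given for some comparisons, and not every disagreement between them is listed. Both procedures were tested on simulated data. Alternatives covered the filter, normalisation, variance model, array weights, replicate block and each array left out.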

Additional observations from a re-analysis of the deposited data

Results flagged for a closer look

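In groups of 5 or 8 arrays, 1 array stood far from its group by Dixon's test in 6 of 60 combinations of gene and group, where chance gives about 1 in 20. All 6 were vehicle arrays. In VTA, vehicle array 4 was low for Fkbp5 (8.41, nearest 8.70) and for Sgk1 (10.99, nearest 11.58). In NAC, vehicle array 2 was high for Zbtb16 (8.90, nearest 7.64) and for Cdkn1a (8.86, nearest 8.59), and vehicle array 1 was low for Klf9 (12.09, nearest 12.85). In PFC, vehicle array 4 was low for Zbtb16 (8.83, nearest 9.10).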

How the results depend on the processing

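Counting the main probe set of each member and other probe sets called across regions or between NAC and VTA, and setting aside the arrays left out, 384 of 398 log2 differences kept sign and side of the threshold, 1 reversed (Nr3c1 in PFC, 0.0023 with quantile normalisation), 9 became called and 4 lost their call; the cause was not tested. Other probe sets that became called are in the counts that follow. In VTA, 2 members were called with the filter at the 60th percentile, 2 with a trended robust fit, 1 with array weights and 2 in 1 fit of all arrays. All probe sets called in VTA numbered 0 without the filter, 262 with quantile normalisation, 291 at the 60th percentile, 241 with the trended robust fit, 704 with array weights, 0 with 1 probe set per gene and 940 in 1 fit. In PFC they numbered 4, 0, 61 and 36 at the 60th percentile, with the trended robust fit, with weights and in 1 fit. Across regions 7 members and 556 probe sets were called with weights and 140 probe sets at the 60th percentile. Between regions, quantile normalisation gave 166 probe sets for VTA minus NAC and 2 members for VTA minus PFC. For NAC against VTA, 25572 were called without the filter. Of the pairs, 11 passed with deviations from region means, 0 within VTA and 0 within NAC.

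The main fits did not pair arrays by replicate number. Same-numbered arrays of modafinil and vehicle correlated at a median of 0.068 in VTA, -0.13 in NAC and 0.0071 in PFC. Between regions of 1 treatment the medians were higher for same-numbered than for other arrays, from 0.042 to 0.17 against -0.057 to -0.0020, but no pair of groups had every same-numbered r over 0.1. These values do not settle whether a number stands for 1 mouse in several regions. With the replicate block, 0 probe sets were called in VTA, 0 in PFC and 122 across regions, with 1 member (Tsc22d3 1425557_x_at had an adjusted p of 0.0774). A random block of treatment by number gave 118 across regions and 161 for VTA minus NAC. Across regions Tsc22d3 stayed called with it in limma (adjusted p 0.0330 for 1420772_a_at and 0.0279 for 1425557_x_at).

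Leaving out each array in turn gave 0 to 172 called probe sets in VTA, 0 to 1 in NAC, 0 to 62 in PFC and 145 to 389 across regions, with 2 to 5 members. It gave 46 to 177 for VTA minus NAC, 116 to 310 for VTA minus PFC with 0 to 2 members, and 14940 to 16082 for NAC against VTA with 13 to 16 members. These leave-outs of region differences were chosen after seeing the data. Reversals were found for values near 0: Mt1 in VTA (-0.0035 to 0.063), Mt2 in VTA (-0.046 to 0.038), Fkbp5 in NAC (-0.033 to 0.10) and Nr3c1 in NAC (-0.027 to 0.068).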
